A study of Mus musculus with 39 samples.

Results

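The 10 genes described here are Igf2, H19, Dlk1, Afp, Gpc3, Peg3, Plagl1, Mest, Igf1 and Ghr, a set of juvenile growth and imprinted genes, among 18194 genes that could be named on the array. They were taken by name, with earlier results of these data known, so their counts beside those of all genes are descriptions. Each was read through its brightest probe set by mean log2 signal over the 39 arrays, leaving aside probe sets whose identifier ends in _x_at, which can pick up related transcripts. Where a gene had several probe sets, from 2 for Igf2 and Dlk1 to 5 for Afp and Peg3, the readings of the others are drawn in the plot of every probe set and are given in the text where they differ from the one used. The probe set used for H19 also carries the name Mir675, since that miRNA hairpin lies inside the H19 transcript, and it was accepted as H19.

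The arrays measured whole lung and whole liver RNA of mouse models of Gaucher disease, a lysosomal storage disease. The 9V/null mice carried a mutant allele over a null allele on a mixed FVB, C57BL/6J and 129SvEvBrd background, and the 4L mice were homozygous for another mutant allele on a mixed C57BL/6J and 129SvEvBrd background. Each line was sampled at 4, 12, 18 and 28 weeks of age (wk), with 2 arrays per line, tissue and age. Wild-type (WT) mice had the mixture of the 9V/null line and were sampled at 28 wk only, on 4 lung and 3 liver arrays. Per the study's methods each array held RNA pooled from 3 mice, so the spread between arrays is that between pools and p-values measure only that spread. The change with age was therefore measured within each mutant line, as the mean log2 signal of the 6 arrays at 12, 18 and 28 wk minus that of the 2 arrays at 4 wk, and no WT mice of 4 wk were analysed here. All 8 mutant groups of a tissue carry mutant alleles, and a change with age in WT cannot be read from these arrays.

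Growth hormone acts on the liver through its receptor Ghr and raises the secretion of Igf1, which together with the fetal growth factor Igf2 drives growth of the body. Imprinted genes are read from the maternal or the paternal copy only, and many of them, H19, Dlk1, Peg3, Plagl1 and Mest among them, are abundant in the fetus and newborn and are turned down together as growth slows. Afp, a fetal plasma protein, and Gpc3, a cell surface proteoglycan that restrains growth, are abundant in fetal liver and are silenced there after birth.

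In the mouse assembly GRCm38.p6, Igf2 (chr7:142650768-142666816) and H19 (chr7:142575530-142578146, a long non-coding RNA) neighbour each other in an imprinted domain, and Peg3 lies elsewhere on the same chromosome (chr7:6703892-6730462). The other members lie at chr12:109452485-109463336 (Dlk1), chr10:13090832-13131694 (Plagl1), chr6:30733506-30748466 (Mest), chrX:52272426-52613974 (Gpc3), chr5:90490714-90508907 (Afp), chr10:87858265-87937047 (Igf1) and chr15:3317755-3583352 (Ghr). H19 and Mest, the genes with the clearest age differences below, each hold a miRNA hairpin within the gene, Mir675 at chr7:142577064-142577147 and Mir335 at chr6:30741299-30741396. Their mature forms are shown because a fall of the host transcript is what these arrays can see, while the mature miRNAs themselves were not measured. Sequences are from RefSeq, with bases 2 to 8, the seed, in capitals.
mmu-miR-675-5p: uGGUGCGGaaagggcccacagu
mmu-miR-675-3p: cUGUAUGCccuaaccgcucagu
mmu-miR-335-5p: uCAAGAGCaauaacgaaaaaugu
mmu-miR-335-3p: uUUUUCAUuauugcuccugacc
No seed was shared among the 4. The hairpin of Mir675 is on the minus strand and that of Mir335 on the plus strand.

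RefSeq promoter windows, 250 bases before to 50 after a transcript start, were at hand for 9 of the 10 genes, in 15 windows. H19 had none. The window of Mest at chr6:30737803-30738102 (plus strand) is shown because its gene differed with age in the same direction in every line and tissue, and that of Afp at chr5:90490464-90490763 (plus strand) because its arrays of 9V/null mice lay apart by age upwards in lung and downwards in liver on the probe set used, neither called. Capitals mark CG dinucleotides in Mest, and GTTAAT and TATAAA in Afp.
Mest: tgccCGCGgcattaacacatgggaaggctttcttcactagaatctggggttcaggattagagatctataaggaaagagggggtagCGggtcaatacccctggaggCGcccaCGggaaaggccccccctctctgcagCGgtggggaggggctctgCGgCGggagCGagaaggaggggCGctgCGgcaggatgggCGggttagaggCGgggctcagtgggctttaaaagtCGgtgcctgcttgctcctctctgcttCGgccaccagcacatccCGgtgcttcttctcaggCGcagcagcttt
Afp: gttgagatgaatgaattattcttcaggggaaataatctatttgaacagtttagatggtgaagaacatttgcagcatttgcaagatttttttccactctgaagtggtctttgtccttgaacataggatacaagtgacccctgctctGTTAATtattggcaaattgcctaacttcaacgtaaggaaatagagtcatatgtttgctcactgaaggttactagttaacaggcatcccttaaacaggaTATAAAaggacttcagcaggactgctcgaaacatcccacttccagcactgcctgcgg
The Mest window held 17 CG dinucleotides, an observed to expected ratio of 0.605, and the Afp window 3, a ratio of 0.25, against a median ratio of 0.384 over 32851 windows of 27025 genes. Mest had 3 windows and the one with the highest ratio is shown. The others had 0.59, in a window overlapping it almost wholly, and 0.327. Among the other members the ratio ran from 0.0999 in a window of Igf2 to 0.919 in the window of Gpc3. The letters TATAAA, searched on both strands, stood in 13.6% of all windows, and among the members in Afp and in a window of Ghr. The letters GTTAAT, the core that HNF1 factors bind, stood in 7.1% of all windows, and among the members in Afp and in 2 windows of Mest. A match is a description of the letters and not a measured site.

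The tissue labels held on every array. Sftpc, which encodes surfactant protein C of the alveolar epithelium, had signals of 46367.3 to 181027.5 in lung and 124.2 to 5252.3 in liver. Alb, the hepatocyte albumin gene, had signals of 95767.3 to 247179.2 in liver and 264.8 to 40507.3 in lung. In 4 arrays markers of another tissue stood out. The summed signal of 10 muscle genes was 569810.8 in replicate 2 of 9V/null lung at 4 wk, against at most 187775.1 on any other lung array, and 17493.4 in replicate 2 of WT liver, against at most 3385.1 on any other liver array. The sum of 9 lung epithelium genes was 24624.1 in replicate 1 of 4L liver at 4 wk, against at most 4042.2 on any other liver array, and the sum of 13 hepatocyte genes was 102736.7 in replicate 1 of 4L lung at 28 wk, against at most 79299.2 on any other lung array. Values of the 10 members without these 4 arrays, from a fit that left out all of them, are given beside the differences they moved most. The other genes named below were not read from that fit. The hepatocyte sum of 79299.2 came from 4L lung at 4 wk, where the other array had 17379.9. Alb was 36296.0 on replicate 2 there and 6488.1 on replicate 1, and both arrays were kept in that fit. The pools also varied in their share of females, since Xist ran from 257.0 to 14094.1 in lung and from 180.3 to 12566.2 in liver. In whole tissue, fewer cells of a type and less RNA per cell cannot be told apart.

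A difference was called where limma's adjusted p, by Benjamini-Hochberg over all 45037 probe sets, was at most 0.01 and the fold was at least 1.8. With age, Mest fell in 9V/null lung and H19 fell in 9V/null liver, and no other member was called in any line and tissue taken alone. In 9V/null lung 1 of 10 members was called lower and 0 higher, where 0.192% of all genes were called lower and 0.346% higher. In 9V/null liver 1 of 10 was called lower and 0 higher, against 0.616% and 0.715% of all genes. In 4L lung and 4L liver 0 of 10 were called in either direction, against 0.0055% lower and 0.0055% higher of all genes in lung, and 0.181% lower and 0.11% higher in liver. In lung, the later arrays lay wholly below the 4 wk arrays for 4 members in 9V/null, where 7.6% of all genes did, and for 3 members in 4L, where 4.41% did. In liver they did so for 3 members in each line, where 5.56% of all genes did in 9V/null and 6% in 4L.

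**Figure D1:**
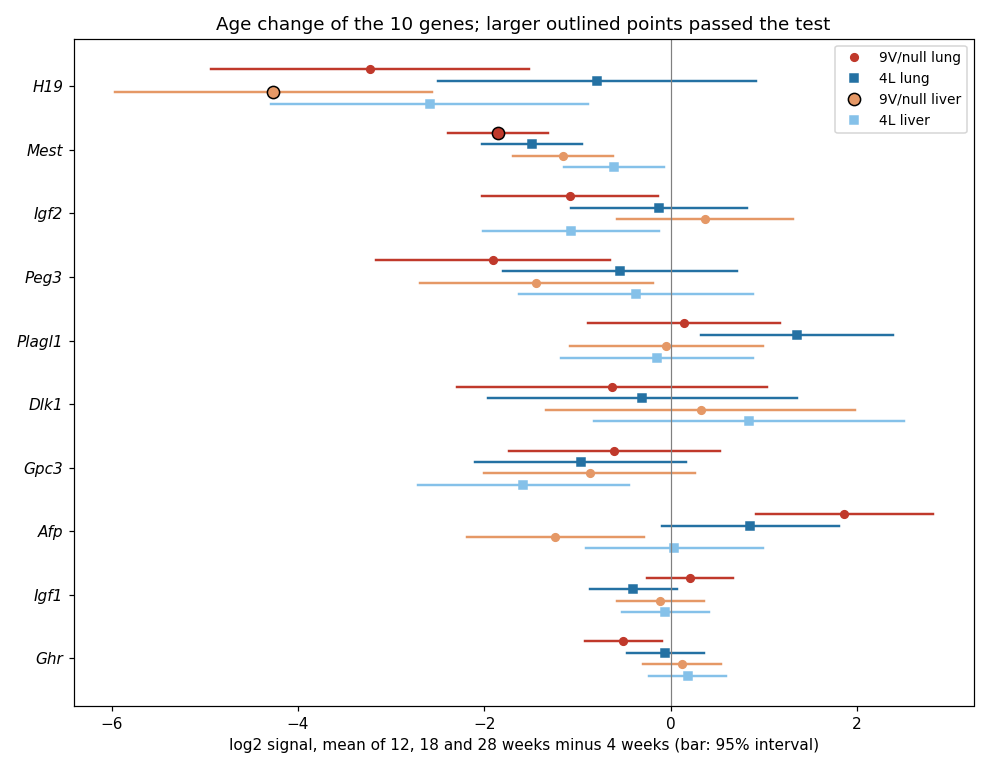
Log2 difference between the arrays of 12 to 28 wk and those of 4 wk for each of the 10 genes, with its 95% interval, by line and tissue. Larger outlined points passed the test, and these are H19 in 9V/null liver and Mest in 9V/null lung.

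H19 is a long non-coding RNA read from the maternal copy. It is abundant in fetal liver, lung and muscle and is turned down in liver and lung after birth. In 9V/null liver its signal was 2630.2 and 794.0 at 4 wk, 176.4 and 30.2 at 12 wk, 11.8 and 79.9 at 18 wk, and 242.9 and 109.4 at 28 wk. Both arrays of 4 wk lay above all 6 later ones, and the lowest later array lay under the floor of 16 that was set before taking logs. The fall was 4.26 on the log2 scale (limma, SE 0.82, adjusted p = 0.0044). Its size depends on the floor, since later arrays lie near or under it, and with a floor of 64 the log2 difference was -3.75 (adjusted p = 0.0007). By age, the log2 difference from 4 wk was -4.31 at 12 wk (limma, adjusted p = 0.036), -5.34 at 18 wk (0.0055, called) and -3.15 at 28 wk (0.067). At 18 wk 0.396% of all genes were called lower.

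The size of that fall rested on which 4 wk array was kept. Without replicate 1 of 4 wk the log2 difference of H19 was -3.40 (limma, adjusted p = 0.12), and without replicate 2 it was -5.13 (0.011). Leaving out 12 wk replicate 2, 18 wk replicate 1 or 28 wk replicate 2 brought the adjusted p to between 0.010 and 0.011, just past the limit. It was also not called when liver was fitted without lung (adjusted p = 0.12).

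H19 in 4L liver had 344.7 and 740.1 at 4 wk, 236.6 and 34.7 at 12 wk, 104.3 and a value under the floor at 18 wk, and 137.9 and 185.7 at 28 wk. The 4 wk arrays again lay above all 6 later ones, with a log2 difference of -2.59 (limma, SE 0.82, adjusted p = 0.17), and -3.14 (0.25) without the array with lung epithelium genes. Averaged over both lines, the liver difference was -3.43 (limma, SE 0.58, adjusted p = 0.0011) and was called, where 0.879% of all genes were called lower. That call was lost without replicate 1 of 9V/null (limma, adjusted p = 0.016) or replicate 2 of 4L at 4 wk (0.014). WT liver at 28 wk had 165.3, 845.4 and 142.3, so that 1 WT array reached the level of 4 wk liver, and that array is the WT liver array with the high muscle genes. What the muscle genes contributed to its H19 signal was not tested.

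H19 in 9V/null lung had 1260.2 and 5123.1 at 4 wk, and the 6 later arrays ran from 221.4 to 296.1. The groups did not overlap and the log2 difference was -3.23 (limma, SE 0.82, adjusted p = 0.042), which was not called. The higher of the 4 wk values belongs to the array with the high muscle genes, where Ckm, the muscle creatine kinase, had 64245.9 against at most 5529.8 on any other lung array. Without that array the log2 difference was -2.22 (limma, adjusted p = 0.28), and the remaining 4 wk array of 1260.2 still lay above every later array. In 4L lung H19 had 439.3 and 449.1 at 4 wk against 190.6 to 378.4 later, a log2 difference of -0.79 (limma, SE 0.82, adjusted p = 0.94) without overlap. WT lung had 209.1, 298.0, 168.7 and 174.9, within or below the later mutant arrays.

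Mest, an imprinted gene of the alpha/beta hydrolase fold family that is read from the paternal copy in mesodermal tissue, had 4 wk arrays above all later arrays in each of the 4 line and tissue groups. In 9V/null lung its signal was 3559.2 and 3517.2 at 4 wk, 1236.7 and 897.2 at 12 wk, 807.0 and 1048.5 at 18 wk, and 965.8 and 980.2 at 28 wk. The 4 wk arrays stood far above the rest and the later ages overlapped one another. Mest fell by 1.85 on the log2 scale (limma, SE 0.26, adjusted p = 0.00053, 3.61-fold). Against 4 wk it was called at 18 wk (log2 difference -1.94, limma adjusted p = 0.0016, where 0.5% of all genes were called lower) and at 28 wk (-1.86, 0.0031, 0.198% of all genes), and at 12 wk it was -1.75 (0.027).

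In 4L lung Mest had 2515.1 and 3270.9 at 4 wk against 800.9 to 1241.2 later, a log2 difference of -1.49 (limma, SE 0.26, adjusted p = 0.020). The groups did not overlap and the fold was 2.81, but the adjusted p missed the limit. Averaged over both lines Mest fell by 1.67 in lung (limma, SE 0.18, adjusted p = 1.9e-05), where 0.0715% of all genes were called lower.

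Mest in 9V/null liver had 1479.9 and 1439.6 at 4 wk against 462.1 to 827.5 later, a log2 difference of -1.15 (limma, SE 0.26, adjusted p = 0.015). In 4L liver it had 1060.6 and 969.2 at 4 wk against 427.3 to 860.6 later, a difference of -0.60 (limma, SE 0.26, adjusted p = 0.35). The groups overlapped in neither, and averaged over both lines the liver difference was -0.88 (limma, SE 0.18, adjusted p = 0.0079, called). That call was lost under several alternatives, among them leaving out the 4 arrays with markers of another tissue (limma, adjusted p = 0.054) and leaving out any of 12 among its 16 arrays, which brought the adjusted p to at most 0.051 or the fold under 1.8.

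Summed markers of connective tissue and mesothelium were set beside these differences, and they did not separate the ages in every group. The summed signal of 12 fibroblast and mesenchyme genes in lung ran from 324074.3 to 394129.4 in 9V/null and from 333027.3 to 335488.9 in 4L at 4 wk. At 12 to 28 wk the groups' ranges lay between 248498.7 and 285908.1 in 9V/null and between 217038.6 and 312616.1 in 4L, all below the 4 wk arrays. In liver, 6 mesothelium genes summed to between 2377.4 and 2857.7 in 9V/null and between 2339.5 and 2993.6 in 4L at 4 wk, and to at most 1460.9 and 1950.7 later. The fibroblast and mesenchyme genes in liver overlapped in 9V/null, from 36844.0 to 40683.8 at 4 wk and from 34331.1 to 43610.5 later, and lay apart in 4L, from 37292.0 to 43157.3 and from 26072.2 to 35288.4. The mesothelium genes in lung overlapped in both lines, from 31769.5 to 43806.1 at 4 wk and 25294.0 to 33810.8 later in 9V/null, and from 42263.5 to 42784.0 and 33919.2 to 48999.9 in 4L. The fibroblast and mesenchyme genes include Col1a1 and Col1a2, which are also in the matrix list below, so their sum follows collagen expression as well as cells. The part of these cells in the differences of Mest and H19 was not tested.

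**Figure D2:**
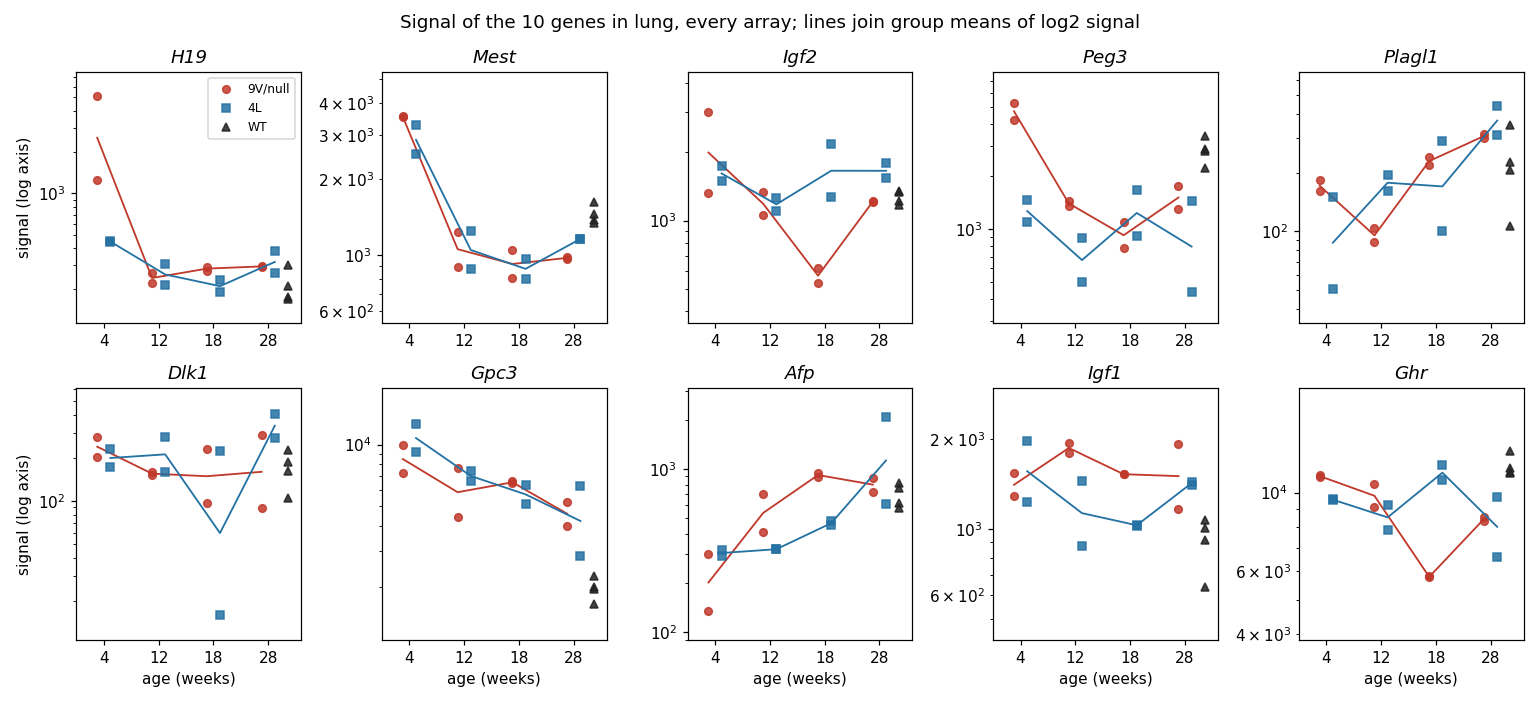
Signal of the 10 genes on every lung array (log axis) at 4, 12, 18 and 28 wk, for 9V/null (circles), 4L (squares) and WT (triangles, drawn beside 28 wk). Lines join the group means of log2 signal, and Mest drops between 4 and 12 wk in both lines while H19 at 4 wk is high on the 9V/null arrays.

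Peg3, a zinc finger gene read from the paternal copy, was not called with age in any group. In 9V/null lung its signal was 5253.5 and 4201.3 at 4 wk, 1444.0 and 1365.0 at 12 wk, 1100.4 and 778.7 at 18 wk, and 1763.3 and 1306.3 at 28 wk. The groups did not overlap, with a log2 difference of -1.91 (limma, SE 0.61, adjusted p = 0.11). Without the array with muscle genes it was -2.07 (limma, adjusted p = 0.11). The next brightest Peg3 probe set gave -1.79 (limma, adjusted p = 0.052). Peg3 in 9V/null liver had 3395.2 and 2345.7 at 4 wk against 297.6 to 2516.9 later, with overlap (log2 difference -1.44, limma adjusted p = 0.24).

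In the 4L mice Peg3 had 1472.0 and 1097.9 in lung at 4 wk and 437.2 to 1683.7 later, and 262.8 and 787.3 in liver at 4 wk and 181.6 to 565.4 later. Both pairs of groups overlapped, with log2 differences of -0.55 and -0.37 (limma, adjusted p = 0.95 and 0.87), and -0.26 and -1.16 (0.98 and 0.64) without the 4 arrays. On the next brightest probe set neither pair overlapped, with 2046.0 and 2021.4 against 331.6 to 2005.2 in lung and 690.8 and 1014.9 against 158.0 to 451.3 in liver, and the log2 differences of Peg3 there were -0.85 and -1.47 (limma, adjusted p = 0.79 and 0.18). The same probe set gave -1.13 (0.24) in liver of 9V/null mice, also without overlap. The other 3 probe sets of Peg3, of mean log2 signal 4.64 to 7.20, gave log2 differences from -2.77 to 1.45 over the 4 line and tissue groups, none called.

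Igf2, the fetal growth factor read from the paternal copy next to H19, was not called with age in any group. Its lung signal in 9V/null was 1320.4 and 2994.7 at 4 wk against 531.4 to 1331.4 later, a log2 difference of -1.08 (limma, SE 0.46, adjusted p = 0.25) with overlap, and its higher 4 wk value again came from the array with the muscle genes. Without that array the log2 difference was -0.49 (limma, adjusted p = 0.74). In 4L lung it had 1730.1 and 1498.3 against 1104.0 to 2162.1, a difference of -0.12 (limma, adjusted p = 1). Its liver signals were low in every group, from 111.1 to 493.1, with log2 differences of 0.36 in 9V/null and -1.07 in 4L (limma, adjusted p = 0.76 and 0.35). No group of Igf2 signals at 4 wk lay wholly apart from the 6 later ones. A dimmer probe set of Igf2, of mean log2 signal 5.38, gave 0.20 and -0.57 in lung and 0.55 and 0.99 in liver for 9V/null and 4L, none called.

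Dlk1, a Notch-like transmembrane inhibitor of fat cell formation read from the paternal copy, was dim, from 13.2 to 407.3 in lung and 38.1 to 595.7 in liver, and its 4 wk and later arrays overlapped in all 4 line and tissue groups. Its log2 differences ran from -0.63 to 0.84 with SE 0.80, so that only very large changes could have been called. The second probe set of Dlk1 was dimmer still, with log2 differences from -1.15 to 0.51, none called. Plagl1, a zinc finger regulator of other imprinted genes, was dim on the probe set used, from 50.6 to 437.8, and its differences ran from -0.14 to 1.35 with SE 0.50 and none called.

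A brighter probe set of Plagl1 ends in _x_at and was not used by rule, yet it gave another reading in liver. On it, 9V/null liver had 3373.2 and 4078.1 at 4 wk against 363.0 to 2103.2 later, and 4L liver had 3131.8 and 4192.5 against 836.4 to 1494.3. Neither pair of groups overlapped. The log2 difference was -1.59 (limma, adjusted p = 0.0073, called) for 9V/null and -1.55 (0.023) for 4L, while in lung it was -0.25 and -0.13 (limma, adjusted p = 0.79 and 0.99). Against WT of 28 wk, with 466.1 to 633.1, the 4 wk liver arrays of Plagl1 on this probe set were higher by 2.71 in 9V/null and 2.67 in 4L (limma, adjusted p = 3.85e-05 and 9.73e-05, both called). This reading was singled out after its values were seen.

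Gpc3, the X-linked proteoglycan, had 9985.6 and 7215.6 in 9V/null lung at 4 wk and 3991.5 to 7696.6 later, with overlap (log2 difference -0.60, limma adjusted p = 0.67). In 4L lung it had 12594.3 and 9199.0 at 4 wk and 2845.8 to 7403.9 later, without overlap (-0.96, limma adjusted p = 0.79), and -0.78 without the array with hepatocyte genes. Its liver signal in 9V/null was 203.2 and 364.2 at 4 wk against 28.2 to 330.9 later (-0.87, limma adjusted p = 0.48), with overlap. In 4L liver Gpc3 had 524.2 and 675.3 against 110.4 to 328.4, without overlap, and a log2 difference of -1.58 (limma, SE 0.55, adjusted p = 0.22). The lower of those 4 wk arrays is the liver array with lung epithelium genes, and the array without them had the higher Gpc3. Without the former the log2 difference was -1.76 (limma, adjusted p = 0.45).

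Afp was not called with age in any group, though its 4 wk and later arrays lay apart in both tissues of the 9V/null mice. In 9V/null lung it had 134.7 and 302.4 at 4 wk, and 412.5 to 947.8 later, wholly above 4 wk, with a log2 difference of 1.86 (limma, SE 0.46, adjusted p = 0.036). In 9V/null liver it had 508.8 and 319.9 at 4 wk and 55.3 to 309.6 later, wholly below, with -1.24 (limma, SE 0.46, adjusted p = 0.17). The difference between the tissues, 3.10 (limma, SE 0.65, adjusted p = 0.035), was not called either. Without the array with muscle genes, which leaves 1 array at 4 wk, the lung difference was 2.45, and at 18 wk alone it was 2.77.

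The other 4 probe sets of Afp did not all share these directions. In lung of 9V/null mice they gave values from 0.55 to 1.23 on 3 and -0.17 on the fourth on the log2 scale (limma, adjusted p = 0.11 to 0.97), and in liver -1.18, -0.44, 0.36 and -2.31 (0.30 to 0.88). In every one of them the 4 wk and later arrays overlapped in both tissues. In 4L liver they ran from -1.07 to 1.07 and in 4L lung from -0.96 to 1.54, none called.

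In 4L lung Afp had 292.0 and 320.2 at 4 wk and 322.5 to 2079.7 later, just above 4 wk, the highest on the array with hepatocyte genes, a log2 difference of 0.86 (limma, adjusted p = 0.76), and 0.56 (0.82) without that array. In 4L liver it had 286.5 and 318.9 at 4 wk and 209.0 to 439.4 later, with overlap and a difference of 0.04 (limma, adjusted p = 0.99). WT arrays had 574.6 to 819.0 in lung and 246.5 to 400.6 in liver, so that on this probe set adult lung read above adult liver, while on another, of mean log2 signal 4.99, it read below, with 11.7 to 20.0 against 26.4 to 170.4. Zhx2 and Zbtb20, known repressors of Afp in liver, had log2 age differences of 0.48 and 0.17 in 9V/null liver and -0.12 and -0.51 in 4L liver, none called.

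**Figure D3:**
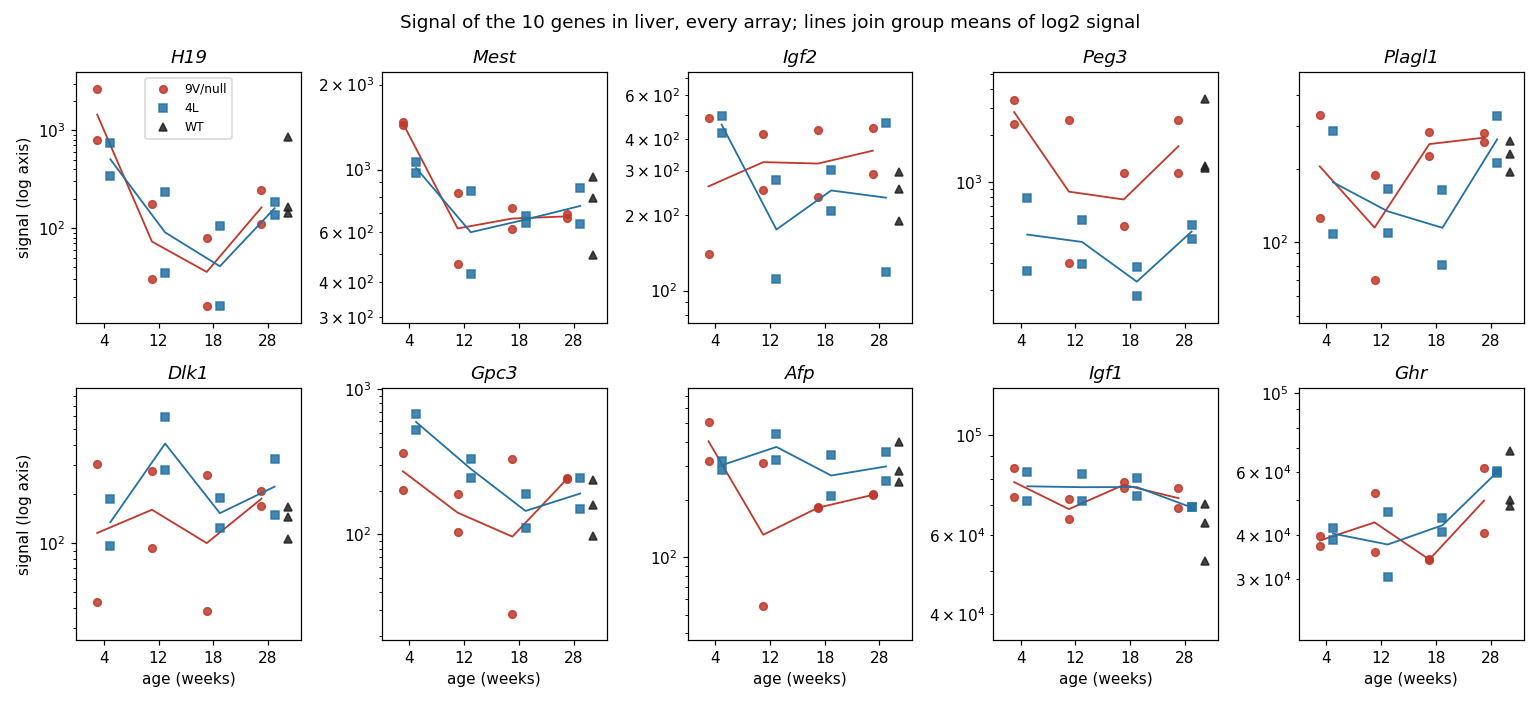
Signal of the 10 genes on every liver array (log axis) by age, drawn as for lung. H19 and Mest at 4 wk lie above all later arrays in both lines, while on the probe sets used those of Igf1 and Ghr overlap the later ones.

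Igf1, the growth factor made by liver under growth hormone, was not called with age on the probe set used. In liver it had 65154.9 to 84633.3 over all mutant arrays and 52617.9, 70456.1 and 63809.9 in WT, with log2 age differences of -0.11 in 9V/null and -0.06 in 4L (limma, SE 0.23, adjusted p = 0.86 and 0.96). In lung, where it is a product of local cells, 9V/null had 1532.8 and 1286.8 at 4 wk and 1169.1 to 1935.1 later, a difference of 0.21 (limma, adjusted p = 0.74). In 4L lung the difference was -0.40 (limma, adjusted p = 0.79).

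Other probe sets of Igf1 read differently in lung. On a probe set of mean log2 signal 12.63, against 13.16 for that used, 9V/null lung had 3309.0 and 4341.5 at 4 wk against 561.7 to 1702.8 later, and 4L lung had 2807.3 and 4492.8 against 504.9 to 2031.5. The groups did not overlap in either line, and Igf1 by that probe set fell by 1.88 for 9V/null (limma, log2 scale, SE 0.31, adjusted p = 0.0021) with -1.65 in 4L lung (0.036). A second probe set, of mean log2 signal 12.92, fell by 1.71 in 9V/null lung (limma, adjusted p = 0.0044) with -1.23 in 4L lung (0.18), and the remaining probe set had -0.33 and -0.63 (limma, adjusted p = 0.61 and 0.58). In liver, the probe set of mean log2 signal 12.63 had 38170.3 and 44203.4 at 4 wk against 16508.2 to 36193.6 later for 9V/null, without overlap (log2 difference -0.82, limma adjusted p = 0.18), and overlapped in 4L (-0.43, 0.63). That of 12.92 had 36401.3 and 40887.9 against 20925.9 to 34477.5 for 9V/null and 32183.5 and 43896.8 against 19007.3 to 31683.8 for 4L, without overlap in either (-0.51 and -0.63, limma adjusted p = 0.45 and 0.43). Which part of the transcript each probe set reads was not analysed here, and these probe sets were singled out after their values were seen.

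Ghr, the growth hormone receptor, had 11201.0 and 11061.2 in 9V/null lung at 4 wk, 9103.9 and 10539.7 at 12 wk, 5809.8 and 5778.3 at 18 wk, and 8330.5 and 8536.6 at 28 wk. The later arrays lay below 4 wk, lowest at 18 wk, with a log2 difference of -0.51 over 12 to 28 wk (limma, SE 0.20, adjusted p = 0.21) and -0.94 at 18 wk alone (0.028). The other probe sets of Ghr gave -0.058 and -0.30 there (limma, adjusted p = 0.93 and 0.74) with overlap. In 4L lung the values were 9502.4 and 9605.7 at 4 wk and 6608.1 to 11928.2 later, with overlap (-0.06, limma adjusted p = 0.99). Liver Ghr ran from 30464.5 to 61688.9 over the mutant arrays, with log2 age differences of 0.12 and 0.18 (limma, adjusted p = 0.83 and 0.78).

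**Figure D4:**
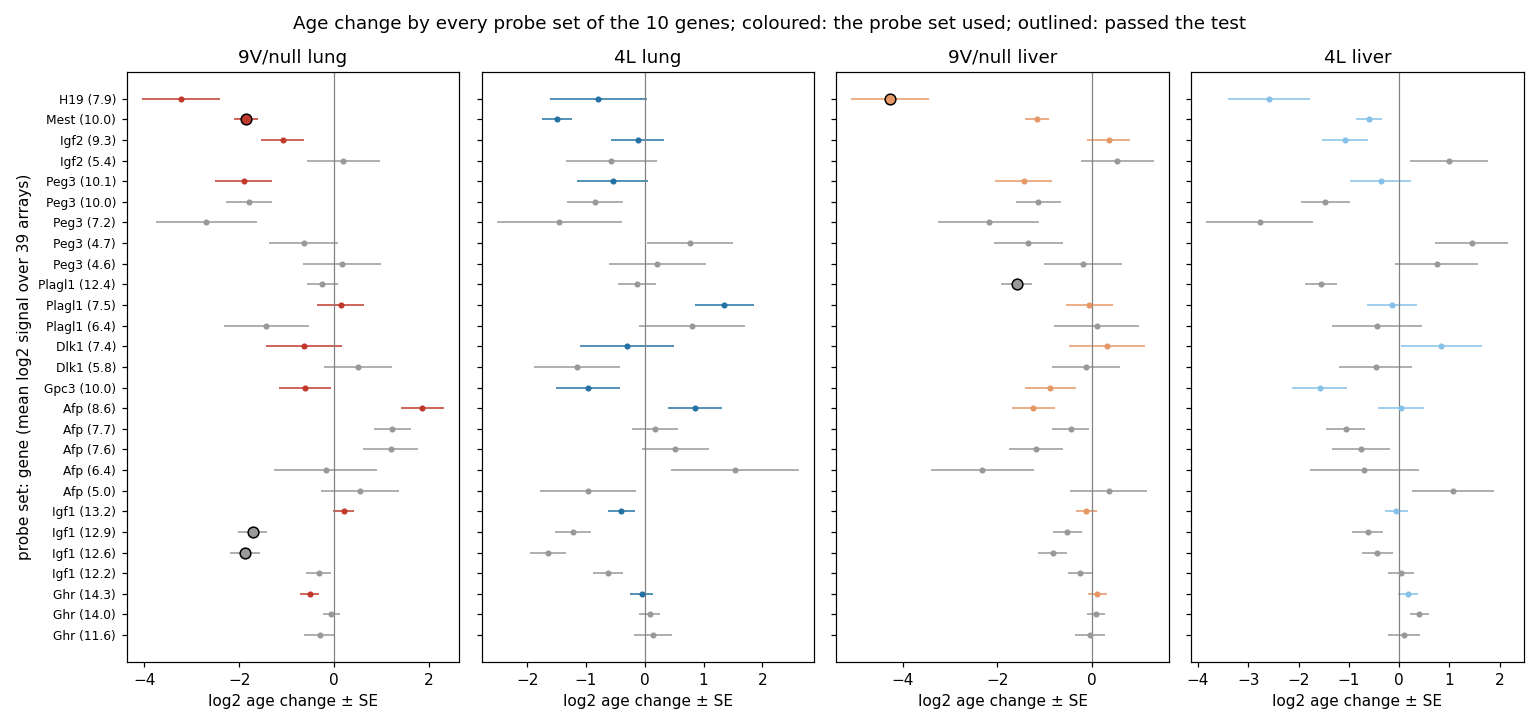
Log2 age difference with its SE for every probe set of the 10 genes, by line and tissue, with the mean log2 signal of the probe set in brackets. Coloured points are the probe sets used and outlined points passed the test, and probe sets of Igf1 in lung and of Plagl1 in liver lie apart from the ones used.

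None of the members was called between 28 and 12 wk. The share of all genes called there is not given, so that count cannot show that the members stayed level after 12 wk. No age difference was shown to depend on the line or the tissue. For the difference between the lines 0 of 10 members were called in lung or liver, against 0.0715% and 0.17% of all genes, and for the difference between lung and liver 0 of 10 in 9V/null or 4L, against 0.0879% and 0% of all genes. For H19 the difference between the lines' age changes had an SE above 1 on the log2 scale, so these tests could see only differences of many-fold.

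The lines themselves were not told apart by any member. At 4 wk 0 of 10 were called between 9V/null and 4L, against 0.143% of all genes in lung and 0.39% in liver. Over 12 to 28 wk 0 of 10 were called, against 0.824% in lung and 0.66% in liver. The widest gap was that of Peg3 in liver, higher in 9V/null by 2.63 on the log2 scale at 4 wk (limma, SE 0.74, adjusted p = 0.082, without overlap) and by 1.56 later (0.075). Without the array with lung epithelium genes the 4 wk gap was 1.84 (limma, adjusted p = 0.35). In lung at 4 wk Peg3 was higher in 9V/null by 1.89 and H19 by 2.52 (limma, adjusted p = 0.27 and 0.28), both without overlap. With 2 arrays on each side at 4 wk a lack of overlap says little, and its share over all genes is not given. Without the array with muscle genes the gap of Peg3 was 2.05 (limma, adjusted p = 0.18), and that of H19 was 1.504 (0.56). The 4L mice lack the FVB part of the background, so line and background cannot be told apart here. The same holds for every comparison of 4L with WT below, since WT had the 9V/null mixture.

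Against WT of the same age, 28 wk, 0 of 10 members were called in any of the 4 comparisons, where in lung 2.09% of all genes were called for 9V/null and 7.01% for 4L, and in liver 0.473% and 0.907%. Gpc3 in lung had 5229.5 and 3991.5 at 28 wk in 9V/null mice, and 2845.8 and 6234.2 in 4L mice, against 1644.9, 2261.7, 1998.3 and 1953.0 in WT. Both lines lay above WT without overlap, by 1.23 and 1.11 on the log2 scale (limma, SE 0.58, adjusted p = 0.22 for both), and in 4L by 1.68 without the array with hepatocyte genes. The share of all genes that lay apart in this way is not given. Peg3 in 4L lung had 437.2 and 1457.9 against 2234.0 to 3421.4 in WT, with a log2 difference of -1.81 (limma, adjusted p = 0.063). Its lower value is that of the array with hepatocyte genes, and without it the difference was -0.94 (0.57).

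Igf1 in lung at 28 wk had no single direction against WT, since its probe sets disagreed. On the one used it lay above WT by 0.76 in 9V/null and 0.68 in 4L (limma, adjusted p = 0.058 and 0.061). On that of mean log2 signal 12.92 it lay below, with -1.41 (0.011) and -1.79 (0.00099, past the limit in 4L), on that of 12.63 also below, with -0.52 and -1.06 (0.39 and 0.035), and on the fourth it had 0.23 and -0.30 (0.68 and 0.52).

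Over 12 to 28 wk against WT of 28 wk, Igf1 was higher in 9V/null lung by 0.87 on the log2 scale (limma, SE 0.18, adjusted p = 0.0013), and Peg3 was lower in 4L liver, with -2.30 (SE 0.53, adjusted p = 0.0058). Those were 1 of 10 members in each comparison, where 7.96% of all genes were called in 9V/null lung and 5.18% in 4L liver, while 0 of 10 were called in 4L lung (9.42% of all genes) and 9V/null liver (4.91%). Igf1 in 9V/null lung ran from 1169.1 to 1935.1, above the WT values of 1067.1, 917.7, 636.6 and 1003.1. The probe set of mean log2 signal 12.92 gave the opposite for Igf1, from 680.1 to 2459.6 against 2887.4 to 4822.9 in WT, lower by a log2 difference of -1.47 (limma, adjusted p = 0.00016) and past the limit, with -1.09 (0.0022) in 4L lung. The one of 12.63 had 561.7 to 1702.8 against 1460.5 to 1834.4, with overlap (-0.71, 0.039). No direction of Igf1 in lung against WT is therefore given. Peg3 in 4L liver ran from 181.6 to 565.4, below the WT values of 1221.7, 3425.8 and 1257.1, and the next brightest Peg3 probe set was called too, with -2.24 (limma, adjusted p = 0.0012). Without WT replicate 2, the array with the muscle genes, the Peg3 difference was -1.81 (limma, adjusted p = 0.063), and leaving out WT replicate 1 or 3, or 4L replicate 1 of 12 wk, 1 of 18 wk or 2 of 28 wk, also ended the call (0.013 to 0.017). The Igf1 fold was under 1.8 without WT replicate 3 (log2 difference 0.71) or without 9V/null replicate 1 of 28 wk (0.75). Ghr in 9V/null lung lay below WT, with -0.60 (limma, adjusted p = 0.0078), but its fold of 1.52 was under the limit of 1.8, and the next brightest Ghr probe set lay above WT there, from 6002.0 to 7365.8 against 4656.7 to 5094.4, with a log2 difference of 0.43 (limma, adjusted p = 0.036, not called).

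At 4 wk the mutant mice differ from WT in age as well as genotype, and the 4L mice also in background. These cannot be told apart. In that comparison Mest in 9V/null lung was higher than WT by 1.30 on the log2 scale (limma, SE 0.27, adjusted p = 0.0049) and Gpc3 in 4L lung by 2.46 (SE 0.58, adjusted p = 0.0075). Those were 1 of 10 members in each, where 2.63% and 4.26% of all genes were called, and in liver 0 of 10 were called where 8.5% of all genes were in 9V/null and 6.66% in 4L. The Gpc3 call was lost when any of its 6 arrays was left out (limma, adjusted p = 0.013 to 0.097), and the Mest call when any but WT replicate 4 was (0.012 to 0.049). Over 12 to 28 wk Mest lay below WT in lung of both lines, with -0.56 and -0.50 (limma, adjusted p = 0.052 and 0.084), so that 4 wk lung lay above adult WT lung and later mutant lung below it.

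WT arrays stood apart from the mutant arrays in the markers of their own tissue, with 9 lung epithelium genes summing to between 360173.4 and 396212.9 in WT lung and to at least 535166.2 in every mutant lung group, and 13 hepatocyte genes to between 1285311.2 and 1421102.7 in WT liver and to at least 1723332.4 in every mutant liver group. The WT arrays also tended to higher ratios of 3' to 5' signal of Actb, a housekeeping gene. These ran from 1.3261 to 1.7033 in WT lung against 1.1144 to 1.4248 in mutant lung. In liver they ran from 1.7449 to 2.2001 in WT against 1.2277 to 1.8007 in mutants, with overlap in each tissue. The part of the marker gap or of these ratios in the comparisons with WT, those of Igf1 among them, was not tested.

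The tissues differed in the level of several of these genes. In WT, Igf2, Gpc3 and Mest were higher in lung, by 2.39, 3.66 and 1.01 on the log2 scale (limma, adjusted p = 5.91e-05 for Igf2 and 0.0014 for Mest), and Igf1 and Ghr were higher in liver, by a lung minus liver difference of -6.12 and -2.21. That was 3 of 10 called higher in lung and 2 of 10 higher in liver, where 27.3% and 13.5% of all genes were. These counts are near those shares and do not set the members apart. The Mest difference was no longer called with quantile normalization (0.33, limma adjusted p = 0.29) or with arrays centred on their medians (0.32, 0.34), nor without WT liver replicate 1 (0.74, 0.023). At 4 wk the 9V/null mice gave the same 3 and 2 members, against 21.4% and 11.8% of all genes, and the 4L mice gave Gpc3 and Mest higher in lung and Igf1 and Ghr higher in liver, against 19% and 9.79%. In 9V/null the Mest call was lost without any of its 4 arrays (limma, adjusted p = 0.016 to 0.021) and the Igf2 call without liver replicate 2 (0.016), and in 4L the Mest call without lung replicate 2 (0.018).

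Gene lists around the 10 members, also chosen with earlier results of these data known, were followed over the same ages. The lists include the members that belong to them, so the calls of H19 and Mest given above are counted again here. With age, 0.192% and 0.0055% of all genes were called lower in 9V/null and 4L lung, and 0.616% and 0.181% in 9V/null and 4L liver, and each count below stands against those shares. Of 29 genes of the growth hormone and IGF axis, 0 were called in lung of either line and 0 were called higher anywhere. Grb10, an imprinted adaptor that damps insulin and IGF receptor signalling, fell in 9V/null liver by 1.61 on the log2 scale (limma, SE 0.27, adjusted p = 0.0012). In 4L liver Igfbp3, the main carrier of circulating IGFs, fell by 1.87 (limma, SE 0.25, adjusted p = 0.0003). Igfbp3 in 9V/null liver had -1.15 (limma, adjusted p = 0.012) and Grb10 in 4L liver -1.37 (0.014). The list's median was -0.28 in lung and -0.27 in liver of 9V/null mice, and -0.04 and -0.16 in those tissues of 4L mice. Over all genes the medians were 0.07 and -0.00 for the 9V/null mice, and -0.00 and -0.05 for the 4L mice.

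Of 39 measured imprinted genes, 1 was called lower in lung and 3 in liver of the 9V/null mice, 0 in either tissue of the 4L mice, and 0 were called higher in any. The gene called in lung was the member Mest. Those of 9V/null liver were H19, Grb10 and Cdkn1c, the maternally read inhibitor of the cell cycle, which fell by 1.93 (limma, SE 0.39, adjusted p = 0.0071). The list's medians were -0.25, -0.12, -0.30 and -0.33 in the same order. Of 30 fetal liver and oncofetal genes, 2 were called lower in 9V/null liver, H19 and Cd24a, a surface protein of immature cells, which fell by 1.51 (limma, SE 0.25, adjusted p = 0.00088), and 0 elsewhere.

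Lists of proliferation and of matrix genes were counted in the same way. Of 27 proliferation genes, in liver 16 were called lower in the 9V/null and 3 in the 4L mice, with medians of -2.72 and -1.74, and in lung 0 were called, with medians of -0.73 and -0.68. Bub1b and Ccnb2, which act at mitosis, fell in 9V/null liver by 4.19 and 4.08 (limma, adjusted p = 0.00084 and 1.17e-05). Of 23 matrix genes of growing tissue, the 9V/null mice had 4 called lower in lung and 4 in liver, and the 4L mice 0 and 5. The list's medians were -1.22 and -0.99 in lung and liver for 9V/null, and -0.59 and -1.02 for 4L. Eln, which encodes elastin, and Col1a1, which encodes a chain of type I collagen, each fell by 3.21 in 9V/null lung (limma, adjusted p = 4.68e-06 and 0.00072). One of the arrays of 4 wk in that group is the array with the high muscle genes, and its part in these differences was not tested.

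**Figure D5:**
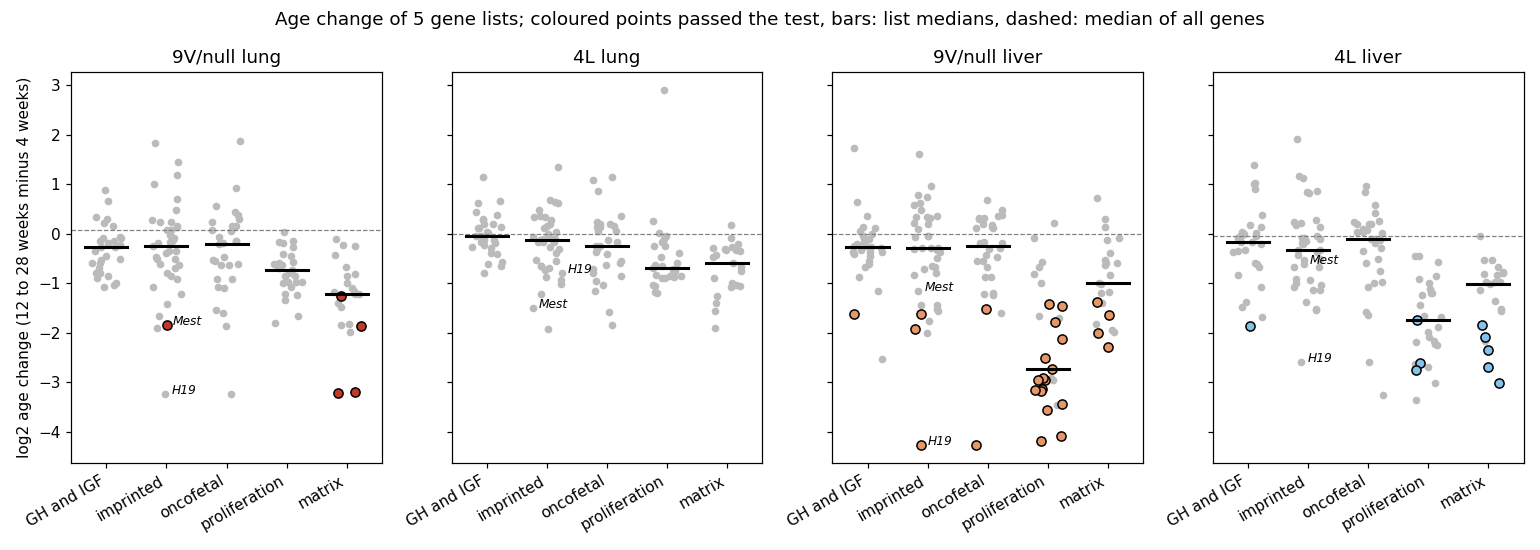
Log2 age difference of each gene in 5 lists by line and tissue, with list medians as bars and the median of all genes dashed. Coloured points passed the test, 16 of 27 in the proliferation list of 9V/null liver against 3 of 39 in the imprinted list and 0.616% of all genes, and H19 and Mest are named.

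Over the 32 mutant arrays, centred within each tissue, the members did not all move together. The highest Pearson correlation between members was 0.63, for H19 and Mest, followed by 0.60 for H19 and Peg3 and 0.51 for Peg3 and Mest, while the neighbours Igf2 and H19 had 0.37. The lowest was -0.34, for Afp and Ghr. Among all named genes, the ones most like H19 were Ccna2 (0.83), Cdk1 (0.78) and Plk1 (0.77), those most like Mest were Nrep (0.81), Itm2a (0.77) and Eln (0.77), and the one most like Peg3 was Itga9 (0.83). The highest correlation was 0.67 for Igf1, with Dnajc22, and 0.65 for Igf2, with 4930428B01Rik. These correlations are descriptions over arrays that share their age groups.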

How the data were processed

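Signal intensities per probe set were deposited by the authors for each of the 39 Mouse Genome 430 2.0 arrays. Per the labels and the study's methods they were made with Affymetrix GCOS 1.1 from pools of 3 mice, each array scaled to one mean, so that a large shift in a few abundant transcripts moves all other values of that array.

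The members and gene lists were chosen with earlier results of these data known. The 45101 probe sets hold 64 controls of the maker, and tests ran over the other 45037, of which 34945 carried a single gene symbol, 932 several and 9160 none. Signals under 16 were set to 16 and log2 was taken. The 18 groups of line, tissue and age entered a single linear model (limma 3.58.1 in R 4.3.3, 21 residual degrees of freedom) with empirical Bayes moderation. Interaction terms tested differences between lines and tissues. Adjusted p is Benjamini-Hochberg within a comparison, and calls required both an adjusted p not above 0.01 and a fold not under 1.8. All 10 members were named, with the list genes called by the largest change, up to 6 a list, and the 3 genes most correlated with a member. On data simulated for 9V/null liver, of 50 probe sets lowered 2-fold 12 were recovered, of 50 lowered 4-fold 34, and of 50 lowered 16-fold 49, with 1 of 44837 unchanged probe sets called. These counts were not split by signal. All lowered probe sets were brighter by mean log2 signal than those of H19, Plagl1 and Dlk1 (7.86, 7.54 and 7.38). Recovery among probe sets as dim as these, or near the floor, was therefore not tested.

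Alternatives changed the floor, the handling of low signals, normalization, the samples in the fit, the replicate block, array weights, the variance model, the filter on dim probe sets, the threshold, the probe set and the age span, and left out each array in turn. Leaving out 4 arrays with markers of another tissue, and reading Plagl1 by its _x_at probe set, were added after seeing the data. Levels of different genes were not compared with each other, and probe sets of a gene were ranked by mean signal to choose the one used. The mutated gene itself is not reported here.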

Additional observations from a re-analysis of the deposited data

How the results depend on the processing

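Mest in 9V/null lung was called lower with age under each alternative except 12 wk alone (log2 difference -1.75, limma adjusted p = 0.027), and each array left out in turn gave 1 member called lower there. H19 in 9V/null liver was no longer called with 12 wk alone (0 members lower), 28 wk alone (0), array weights (0) or liver fitted without lung (0), and leaving out arrays gave 0 to 2 members. The cause was not tested. In the averages over both lines, liver had 1 member called, H19, with quantile normalization, median centring, array weights or without the 4 arrays with markers of another tissue, 0 with separate fits, and 0 to 2 with arrays left out, while lung had 2, Mest and H19, with separate fits. More members were called lower with age in 9V/null lung with a floor of 64, separate fits, second probe sets or the laxer threshold of 0.05 (2 each, and 1 higher with the last), in 4L lung (1, Mest) with a floor of 64, quantile normalization, weights, trend and robust moderation or the laxer threshold, and in 9V/null liver (2) with a floor of 64, trend and robust moderation, the laxer threshold or the _x_at probe set of Plagl1.

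Counts against WT moved more. At 4 wk in lung the members called higher ranged from 0 (replicate block and without the 4 arrays in both lines, weights in 9V/null) to 3 (9V/null with separate fits or a floor of 64, 4L with median centring, both with the laxer threshold). Leaving out arrays gave 0 to 1 in 9V/null and 0 in 4L. With weights 1 member was called lower in 4L lung, and with a floor of 64 or the laxer threshold 1 was called higher in liver. Over 12 to 28 wk, lung had 2 members called higher in 9V/null and 1 in 4L under most alternatives, 1 lower in lung with weights or the laxer threshold, and 0 lower in 4L liver with separate fits, the block or without the 4 arrays. Leaving out arrays gave 0 to 1 in each, and 0 to 1 for Peg3 between the lines in later liver. Between lung and liver at 4 wk, 1 to 2 members were called higher in lung with arrays left out, 1 in 9V/null without the 4 arrays, and 2 to 3 in WT. The tissue difference of the age change gave 1 member (Afp) with the laxer threshold and 0 to 1 with arrays left out.

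Replicate numbers did not pair the arrays: deviations of arrays with number 1 correlated between -0.18 and 0.09 among mutant groups. With the replicate number as a block, 9V/null mice had 1 member called lower with age in lung and 1 in liver as before, and 1 in the average of liver, and no calls were left at 4 wk (0) or in later 9V/null lung (0) against WT. As a random block for lung and liver of a number the correlation was -0.0069.

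Over all probe sets, calls with age in 9V/null lung, 4L lung, 9V/null liver and 4L liver were 190, 5, 446 and 102. They were 418, 32, 547 and 154 with a floor of 64, 30, 27, 158 and 51 with weights, 278, 12, 51 and 4 with separate fits, 417, 14, 557 and 162 with trend and robust moderation, 11, 17, 155 and 36 for 12 wk alone, and 866, 32, 1157 and 309 at the laxer threshold. Quantile normalization gave 340 and 11 in lung, median centring 115 in 9V/null lung, the block 120 there, and leaving out the 4 arrays 527. With single arrays left out they ran over 105 to 193, 7 to 17, 338 to 448 and 65 to 189.

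Some differences turned sign, none of them called on the probe sets used. With the second probe set, Igf1 in 9V/null lung was -1.71 (limma, adjusted p = 0.0044), Igf2 0.20 in 9V/null lung and 0.99 in 4L liver, Plagl1 -1.43 in lung and 0.11 in liver of 9V/null mice, Ghr 0.082 in 4L lung, Afp -0.75 in 4L liver, and Dlk1 0.51, -0.11 and -0.47 in 9V/null lung, 9V/null liver and 4L liver. The mean of all probe sets gave Igf1 -0.93 and Plagl1 -0.51 in 9V/null lung, Ghr 0.056 in 4L lung and Afp -0.28 in 4L liver, and the _x_at probe set gave Plagl1 -0.25 and -0.13 in lung. With 28 wk alone, Igf2 was 0.039 and Dlk1 0.75 in 4L lung, Plagl1 0.39 in 9V/null liver, and Plagl1 0.58, Afp -0.021 and Peg3 0.064 in 4L liver. With 12 wk alone, Plagl1 was -0.84 in 9V/null lung, Dlk1 0.085 in 4L lung and Ghr -0.10 in 4L liver. A floor of 64 gave Dlk1 0.030 in 4L lung and quantile normalization Igf1 0.037 in 9V/null liver. Without the 4 arrays Ghr was 0.037 in 4L lung, and Afp -0.038, Plagl1 0.56 and Igf1 0.053 in 4L liver.

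With single arrays left out, in 4L liver Afp ran from -0.078 to 0.16, Igf1 from -0.17 to 0.053, Peg3 from -1.16 to 0.42 and Plagl1 from -0.84 to 0.56. In 4L lung Dlk1 ran from -0.94 to 0.33, Ghr from -0.15 to 0.037 and Igf2 from -0.25 to 0.0050. In 9V/null liver Dlk1 ran from -1.08 to 1.73, Igf2 from -0.53 to 1.26 and Plagl1 from -0.75 to 0.65. With 2 arrays a group the number of arrays limits the precision, and dim members such as Dlk1 and Plagl1 lie near the floor on some arrays.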

Other observations

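Other genes moved with age in 9V/null liver beside the members. Among 8 macrophage genes, Lyz2, which encodes lysozyme, rose by 2.64 on the log2 scale (limma, SE 0.31, adjusted p = 1.42e-05) and Ctss, which encodes the lysosomal protease cathepsin S, by 2.10 (adjusted p = 2.10e-05), and 0 of the 8 were called lower. Of all genes 0.715% were called higher there and 0.616% lower. The summed signal of the 8, Lyz2 and Ctss among them, was 33518.4 to 43564.8 at 4 wk and 52875.9 to 71506.0 later. In 4L liver the sums overlapped, from 53243.6 to 58277.3 and from 46141.4 to 61379.9. The other macrophage genes are not given singly. In 4L liver Lyz2 had 1.12 and Ctss 0.36 (limma, adjusted p = 0.095 and 0.62), neither called. Cyp7b1, an oxysterol hydroxylase of liver that is higher in males and depends on growth hormone, rose by 2.99 in 9V/null liver (limma, SE 0.35, adjusted p = 1.69e-05) and had 1.71 in 4L liver (adjusted p = 0.020). In 9V/null liver Cyp7b1 was the single gene called among 9 measured sex-biased and growth hormone dependent liver genes, where 0.715% of all genes were called higher. The sex of the mice is not given in the sources used here, and the part of sex in that difference was not tested.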
